A study of Mus musculus with 50 samples.

Results

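Hgf, Bmp2 and Bmp5, 3 of the 1000 gene targets on a spatial transcript panel, were followed through the cells of mouse liver sections, chosen as the growth factor genes that stellate and endothelial cells are known to make for their neighbours. Livers came from HIRA fl/fl C57BL/6 mice injected at the age of 6 months with AAV8-TBG-Cre (HIRA KO) and from wildtype C57BL/6 mice given the same virus (Control), and all were collected 12 months later, at 18 months. HIRA is a chaperone that deposits histone H3.3, and the TBG promoter restricts Cre to hepatocytes, so that in this model the gene was deleted in hepatocytes and not by design in the cells that make these growth factors. Because the Control mice carried no floxed allele, the floxed allele itself and its deletion cannot be told apart here. Sections of 5 µm were imaged in 50 fields of view, 25 per group, which lay in 3 tissue areas per group on 1 slide. The methods of the study speak of biological replicates with several fields of view per tissue, but the labels name no mouse, so tissue areas served as replicates, and p-values measure the spread between areas. Each genotype filled its own column of areas on the slide, so genotype and side of the slide cannot be told apart. Hira was not a target, and its deletion could not be checked in these counts.

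HGF is a secreted factor that signals through the receptor MET on hepatocytes, and in the liver it is made by stellate cells, the vitamin A-storing pericytes of the sinusoid. BMP2 and BMP5 are secreted ligands of the TGF-β superfamily that act through BMP receptors and SMAD proteins. Sinusoidal endothelial BMP2 is known for inducing hepcidin in hepatocytes and thereby limiting iron uptake. BMP5 is a related ligand that is used as a marker of stellate cells. Liver lobules run from portal tracts, where bile ducts lie, to the central vein, whose neighbouring hepatocytes make glutamine synthetase (Glul), and both stellate and endothelial cells differ along this axis.

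In RefSeq on build GRCm38.p6, Bmp2 lies on chromosome 2 from 133552159 to 133562896, Hgf on chromosome 5 from 16553495 to 16619439 and Bmp5 on chromosome 9 from 75775365 to 75900316. Hgf and Bmp5, the pair of genes with a shared source in these data, are shown with the 250 bases before their annotated start, both on the plus strand, with capitals marking E-boxes (CANNTG, searched on both strands), the element bound by basic helix-loop-helix factors.
Hgf, chr5:16553245-16553494: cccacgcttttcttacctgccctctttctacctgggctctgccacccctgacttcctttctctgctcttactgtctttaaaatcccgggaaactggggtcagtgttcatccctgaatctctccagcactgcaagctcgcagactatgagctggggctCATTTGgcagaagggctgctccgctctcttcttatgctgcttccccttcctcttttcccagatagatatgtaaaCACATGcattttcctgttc
Bmp5, chr9:75775115-75775364: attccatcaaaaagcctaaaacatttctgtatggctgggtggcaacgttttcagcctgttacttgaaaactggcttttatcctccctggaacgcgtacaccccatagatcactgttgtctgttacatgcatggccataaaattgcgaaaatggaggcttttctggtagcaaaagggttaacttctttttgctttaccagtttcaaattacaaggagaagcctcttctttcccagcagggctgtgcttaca
The Hgf window held 2 E-boxes, a second annotated start of Hgf (window chr5:16553651-16553900, not shown) held 0, and the Bmp5 window held 0 in these letters, against 66.2% of 32851 RefSeq promoter windows of the same length with at least 1. None of the windows held TATAAA, found in 12.4% of windows, or AGATAA, found in 9.99%, on either strand.

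Over all decoded transcripts, Hgf was counted 6536 times, Bmp2 10773 times and Bmp5 5122 times. The 10 negative probes, which match no mouse transcript and measure background, were counted between 1238 and 4364 times each, with a mean of 3304. The total of Hgf was thus 1.98 times, that of Bmp2 3.26 times and that of Bmp5 1.55 times the mean negative probe, and a part of every value below is background. For this reason each level, given as counts per 1000000 gene counts (CPM), is set beside the mean negative probe in the same cells, and the net level is the difference between them. Of the transcripts in cells, 46.3% of Hgf, 46.99% of Bmp2 and 51.4% of Bmp5 lay over the nucleus, close to the 47.7% of all gene targets, whereas only 28.9% of negative probe counts did. Depth differed between areas, with 718991 to 1542205 gene counts in the 6801 to 10171 cells kept per area.

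Segmented cells were clustered without the 3 genes, and clusters took a class name from marker genes. The stellate-like class was made up of a cluster led by Dcn (4390 cells) and a smaller one led by Gsn, with Dpt and Igfbp3 among its leading genes (714 cells), and each had 10 raised stellate markers. That marker list included Gsn itself, Dcn, Bgn and collagen genes, which fibroblasts also make. Whether the Gsn-led cells are stellate cells or other fibroblasts was not tested. The endothelial-like class was made up of a cluster led by Kdr, with Eng and Mrc1 (5045 cells), and one led by Fabp4 and Vwf, the gene of von Willebrand factor (770 cells), each with 10 raised endothelial markers.

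Hgf and Bmp5 were highest in stellate-like cells and Bmp2 was highest in endothelial-like cells, in all 6 tissue areas. Hgf in stellate-like cells was 2251, 2123 and 2420 CPM in the 3 Control areas and 1987, 1763 and 2390 CPM in the 3 HIRA KO areas. Bmp5 in the same cells was 1971, 2380 and 2656 CPM in Control and 1656, 1769 and 2285 CPM in HIRA KO. Both genes stood well clear of the mean negative probe, which was 368 CPM in these cells, with an area mean 5.96 times it for Hgf and 5.86 times it for Bmp5. Bmp2 in endothelial-like cells was 4477, 3721 and 5273 CPM in Control areas and 3998, 3460 and 3980 CPM in HIRA KO areas, 10.9 times the mean negative probe on average. For each gene the areas of both genotypes overlapped.

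**Figure D1:**
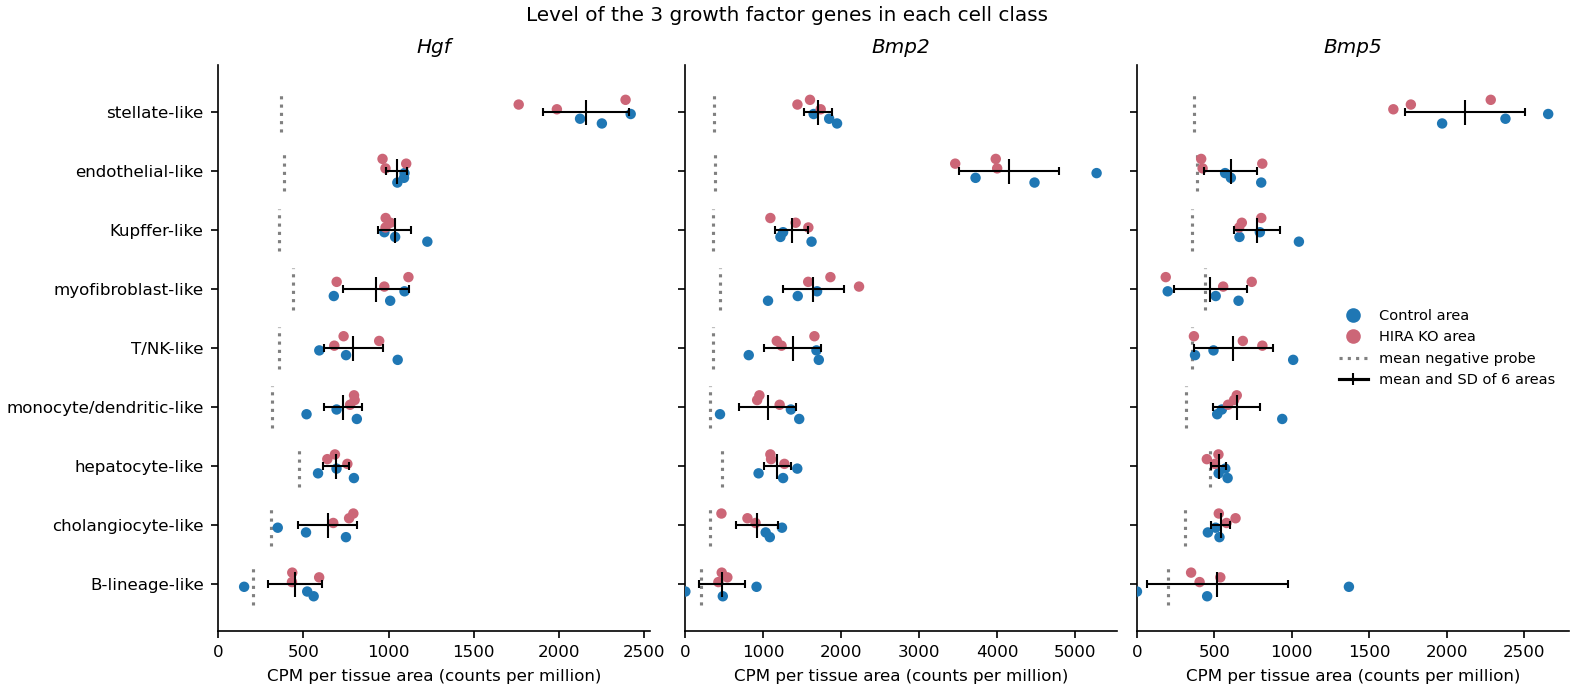
CPM of Hgf, Bmp2 and Bmp5 in each of 9 named cell classes, 1 point per tissue area (blue Control, red HIRA KO), with the mean and SD of 6 areas in black and the mean negative probe as a dotted line. Hgf and Bmp5 are highest in stellate-like cells and Bmp2 in endothelial-like cells, while Bmp5 in hepatocyte-like cells lies close to the negative probe level.

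The contrast between both source classes was tested on counts summed per area with the area as a block (edgeR, Benjamini-Hochberg adjustment over 998 targets). Bmp5 was 3.48-fold higher in stellate-like than in endothelial-like cells (log2 difference 1.80 ± 0.118 SE, adjusted p = 4.19e-17). Hgf was 2.06-fold higher in stellate-like cells (log2 difference 1.05 ± 0.0925 SE, adjusted p = 5.52e-13). Bmp2 went the other way and was 2.41-fold higher in endothelial-like cells (log2 difference −1.27 ± 0.0823 SE, adjusted p = 2.65e-17). Each direction was seen in 6 of 6 areas, where the exact sign-flip permutation test gave p = 0.03125, the smallest that 6 areas allow. In this comparison 15.5% of targets were called higher in stellate-like and 14.6% higher in endothelial-like cells, so a call alone was common between these classes. By the size of their p the 3 genes ranked 22nd (Bmp2), 23rd (Bmp5) and 40th (Hgf) of the 998 targets. These folds include background, and the ratio of mean net levels was 2.70 for Hgf and 7.97 for Bmp5 (stellate-like over endothelial-like) and 2.83 for Bmp2 (endothelial-like over stellate-like).

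Against each of the 8 other named classes, the class with the highest level exceeded it in 6 of 6 areas for every gene, with an exact sign-flip permutation p of 0.03125 in all 24 comparisons. For Hgf the fold of stellate-like cells ranged from 2.05 over endothelial-like cells to 4.48 over B-lineage-like cells. For Bmp5 it ranged from 2.72 over Kupffer-like cells, the resident macrophages, to 4.41 over myofibroblast-like cells. For Bmp2 the fold of endothelial-like cells ranged from 2.42 over stellate-like cells to 8.34 over B-lineage-like cells.

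Below the top class, the order of the levels was mostly not resolved. For Hgf, endothelial-like (1047 ± 60.5 CPM, SD, n = 6 areas) and Kupffer-like cells (1036 ± 96.8 CPM) followed stellate-like cells (2156 ± 252 CPM) and did not differ from each other beyond the spread of areas (exact sign-flip permutation p = 0.8125). Myofibroblast-like, T/NK-like, monocyte/dendritic-like, hepatocyte-like, cholangiocyte-like and B-lineage-like cells came next, from 928 ± 194 down to 449 ± 159 CPM, and no pair of neighbours in this order was separated (exact sign-flip permutation p = 0.125 or higher). For Bmp2, endothelial-like cells (4151 ± 645 CPM) were followed by stellate-like (1701 ± 181 CPM) and myofibroblast-like cells (1642 ± 394 CPM), which again overlapped (exact sign-flip permutation p = 0.875). For Bmp5, stellate-like cells (2120 ± 386 CPM) were followed by Kupffer-like cells (774 ± 148 CPM), which exceeded monocyte/dendritic-like cells (644 ± 152 CPM) in 6 of 6 areas (exact sign-flip permutation p = 0.03125). Of the 24 neighbour pairs of the 3 genes, 5 reached the smallest p of 0.03125, among them the step down from the top class of each gene. None passed adjustment over the 24 pairs, where the lowest adjusted value was 0.15. With 6 areas, 5 pairs at the smallest p could not have passed, so the adjustment does not decide the order.

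Net of background, hepatocyte-like cells held little Bmp5. Their Bmp5 level was 527 ± 48.2 CPM against a mean negative probe of 475 CPM, leaving 52.7 ± 75.5 CPM, whereas Hgf left 218 ± 96.9 CPM and Bmp2 706 ± 168 CPM. Myofibroblast-like cells likewise had a net Bmp5 level of 34.7 ± 259 CPM. At this depth Bmp5 could not be told from background in either class. Met, the HGF receptor gene, had a total no higher than the highest negative probe, so the receiving side of HGF was not measured well here.

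Cells of a section lie on each other, and transcripts can be assigned to a neighbour, so levels in cells with and without a source cell among their 5 nearest cells were compared. In hepatocyte-like cells beside a stellate-like cell Bmp5 was 566 ± 31.3 CPM, against 508 ± 58.7 CPM in those without one, higher in 6 of 6 areas (exact sign-flip permutation p = 0.03125, and 0.375 adjusted over 12 such comparisons). Hgf in hepatocyte-like cells was 728 ± 136 CPM beside a stellate-like cell and 672 ± 54.1 CPM otherwise (exact permutation p = 0.25). Bmp2 in hepatocyte-like cells was 1173 ± 144 CPM beside an endothelial-like cell and 1196 ± 225 CPM otherwise (exact permutation p = 0.75). None of the 12 comparisons passed adjustment. With 6 areas p cannot be lower than 0.03125, and 1 comparison at that value could not have passed, so the adjustment decides nothing here.

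Counts per cell were sparse. Bmp2 was detected in 28.2 ± 1.18% of endothelial-like cells and in 15.4 ± 1.80% of hepatocyte-like cells (SD, n = 6 areas), whose median depths were 83 and 156 counts. After every cell was thinned to 60 counts, leaving out 1726 endothelial-like and 2217 hepatocyte-like cells with fewer, the shares were 20.6 ± 3.68% and 6.58 ± 0.803%. Thinned shares of stellate-like cells (median 93 counts, 1408 left out) with at least 1 count were 11.3 ± 1.54% for Hgf and 11.55 ± 1.91% for Bmp5. In hepatocyte-like cells the corresponding shares were 4.13 ± 0.608% and 2.98 ± 0.175%, set beside them as shares in a class with a lower level of both genes. Both genes together were seen in 1.35 ± 0.511% of thinned stellate-like cells. This was not tested against the joint share that independent detection of each gene would give, so it does not show that the genes go together within cells. All these shares include background counts, and no negative probe share was taken.

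The high level in a class did not mean that most of the gene's counts lay there. Stellate-like cells made up 10.05 ± 3.07% of cells and 8.35 ± 3.26% of gene counts, and held 19.6 ± 6.47% of Hgf counts and 24.1 ± 8.53% of Bmp5 counts. Endothelial-like cells made up 12.0 ± 2.56% of cells and 8.58 ± 2.24% of gene counts, and held 23.6 ± 5.58% of Bmp2 counts. Hepatocyte-like cells, the most numerous named class, made up 29.3 ± 8.36% of cells and 36.25 ± 10.9% of gene counts. They held 28.03 ± 8.44% of Hgf, 28.7 ± 9.38% of Bmp2 and 27.3 ± 9.60% of Bmp5 counts, background included. These means were below their share of all gene counts. Cells of unnamed clusters were 22.8 ± 8.59% of cells, with 21.45 ± 8.16% of gene counts. They held 19.7 ± 8.01%, 19.8 ± 7.78% and 18.2 ± 7.57% of the counts of Hgf, Bmp2 and Bmp5.

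**Figure D2:**
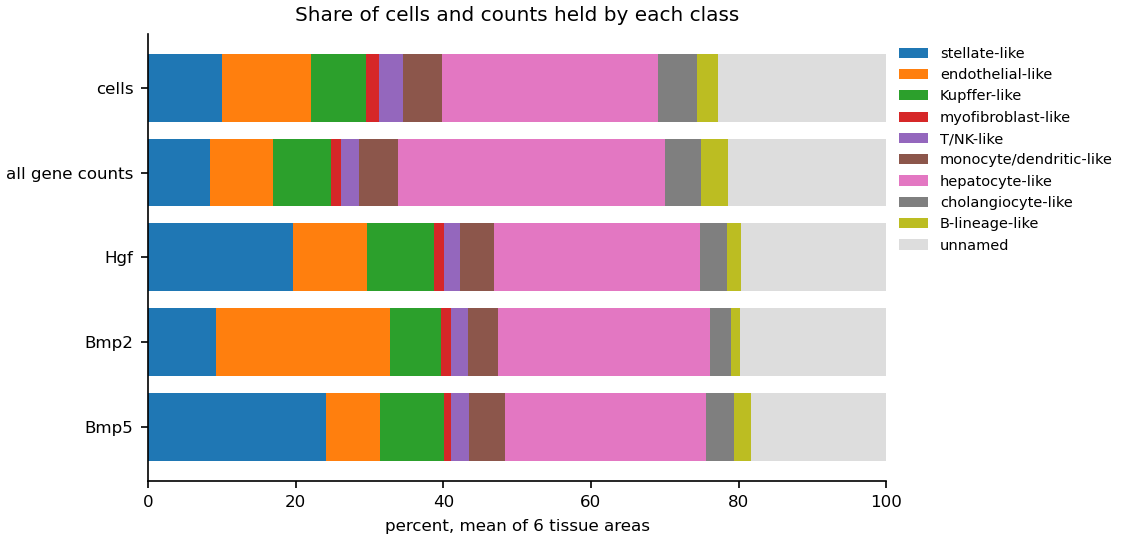
Share of all cells, of all gene counts and of the counts of each gene that lay in each class, in percent, as the mean of 6 tissue areas. Stellate-like cells (left, blue) take a wider part of Hgf and Bmp5 counts than of all counts, and endothelial-like cells (orange) a wider part of Bmp2 counts.

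Within the source classes, as named here, the genes were not evenly spread between clusters, which may be different cell types. In the cluster led by Dcn, Hgf was 2318 ± 289 CPM and in the one led by Gsn 905 ± 320 CPM, a log2 difference of 1.34 ± 0.618 (SD) with the same sign in 6 of 6 areas (exact sign-flip permutation p = 0.03125). Bmp5 was 2224 ± 399 CPM and 1331 ± 297 CPM in these clusters, a log2 difference of 0.70 ± 0.227, also in 6 of 6 areas (exact permutation p = 0.03125). Bmp2 did not separate them (1711 ± 213 and 1642 ± 906 CPM, exact permutation p = 0.625). Among endothelial-like cells, Bmp2 was 4446 ± 771 CPM in the cluster led by Kdr and 2152 ± 300 CPM in the one led by Fabp4, higher in 6 of 6 areas (log2 difference 1.01 ± 0.422, exact permutation p = 0.03125). The clusters led by Gsn and Fabp4 were small, and their Hgf, Bmp2 and Bmp5 values rest on as few as 1 to 14 counts in the poorest area.

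**Figure D3:**
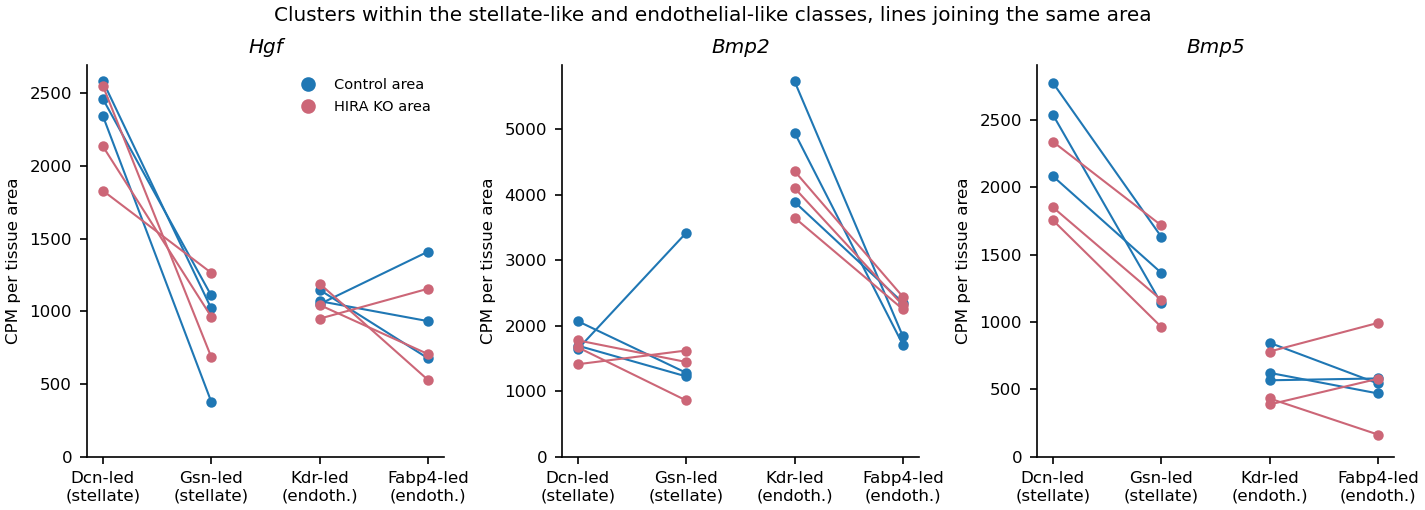
CPM of the 3 genes in both stellate-like clusters (led by Dcn and by Gsn) and both endothelial-like clusters (led by Kdr and by Fabp4), 1 point per tissue area, with lines joining the same area. Hgf and Bmp5 fall from the Dcn-led to the Gsn-led cluster and Bmp2 from the Kdr-led to the Fabp4-led cluster in each of the 6 areas.

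The genes whose level over the 9 named classes was most like that of each gene were taken from 735 targets above the highest negative probe. For Hgf they were Ccl2, Ifitm1, Tnfrsf11b, Ngfr and Col14a1 (Pearson r from 0.955 to 0.892). For Bmp5 they were Tgfbi, Ngfr, Dcn, Col14a1 and Cxcl12 (r from 0.977 to 0.890). For Bmp2 they were the endothelial genes Tie1, Adgrf5, Lyve1 and Clec14a, and Ifitm2 (r from 0.946 to 0.930). Several of these are markers or leading genes of the clusters, and the class means share areas and depth, so the values are descriptions over 9 points. Between the 3 genes, Hgf and Bmp5 had r = 0.853, Hgf and Bmp2 r = 0.643, and Bmp2 and Bmp5 r = 0.231.

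Other genes of the same pathways on the panel were compared between stellate-like and endothelial-like cells. They were among the genes used for clustering, so these counts are descriptions, to be read against the 15.5% and 14.6% of all targets called higher in stellate-like and in endothelial-like cells. Cxcl12 was also a marker that named the stellate-like class, and Eng one that named the endothelial-like class, so the directions of both were set by the naming. Of 8 further BMP and activin ligand genes, 3 were called higher in stellate-like and 1 in endothelial-like cells, led by Bmp4 (log2 difference 0.72), Bmp1 (0.46), a procollagen protease, and Inhbb (−0.47), an activin subunit, all 3 with totals no higher than the highest negative probe. Of 9 receptor genes, 2 were called higher in stellate-like and 4 in endothelial-like cells. Eng, the endothelial co-receptor endoglin (−1.43), Acvr2a, a type II receptor (0.60), and Bmpr2, the type II BMP receptor (−0.43), had the lowest p. None of 3 Smad genes and neither of the 2 tested HGF pathway genes, Met and Stat3, was called. Of 31 other niche factors, 8 were called higher in stellate-like cells, among them Cxcl12 (2.74) and Fgf2 (0.73), and 5 in endothelial-like cells, among them the Notch ligand gene Dll4 (−1.22), where Fgf2 and Dll4 likewise had totals no higher than the highest negative probe. The median log2 difference was 0.02 over the ligands, −0.23 over the receptors and 0.12 over the other niche factors, against 0.0037 over all targets. No BMP inhibitor of the list was on the panel.

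Whether loss of HIRA from hepatocytes went with a change of these genes was asked in all cells and in 3 classes. None of the 3 genes was called in any of the 4 fits (edgeR), and none had an unadjusted p under 0.05 or was called by DESeq2. The background of these fits was 0.2% of targets called in all cells, 0.401% in stellate-like, 0% in endothelial-like and 1.2% in hepatocyte-like cells. In endothelial-like cells, where edgeR called 0 targets, 58 targets had an unadjusted p under 0.05 and DESeq2 called 1.

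In stellate-like cells, Hgf was 2265 ± 149 CPM in Control and 2047 ± 318 CPM in HIRA KO (SD, n = 3 areas each), a log2 difference of −0.12 with a 95% interval from −0.52 to 0.29 (edgeR adjusted p = 0.924). Bmp5 in these cells was 2336 ± 345 CPM in Control and 1903 ± 336 CPM in HIRA KO (log2 difference −0.26, interval −0.68 to 0.15, adjusted p = 0.835). Bmp2 in endothelial-like cells was 4490 ± 776 CPM in Control and 3813 ± 305 CPM in HIRA KO (log2 difference −0.20, interval −0.67 to 0.26, adjusted p = 0.936). All 3 intervals covered 0, and all 3 left out a 2-fold change in either direction. Control area 3 had the highest value of each of these, and without it the log2 differences were −0.03, −0.12 and −0.03. With each area left out in turn, they ranged from −0.27 to 0.0091, −0.44 to −0.12 and −0.34 to −0.03.

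Over all cells, Hgf was 934 ± 117 CPM in Control and 851 ± 30.8 CPM in HIRA KO (log2 difference −0.02, interval −0.29 to 0.25, adjusted p = 0.956). Bmp2 was 1681 ± 309 and 1334 ± 66.3 CPM (log2 difference −0.22, interval −0.57 to 0.12, adjusted p = 0.811), and Bmp5 was 772 ± 117 and 652 ± 23.3 CPM (−0.13, interval −0.41 to 0.15, adjusted p = 0.850). The HIRA KO areas lay close together, and the Control areas were more widely spread and overlapped with them. The fitted differences are smaller than the plain ratios of CPM because the fit also scaled the libraries (TMM). In sums over all cells, fewer cells of a type and less RNA per cell cannot be told apart. Endothelial-like cells made up 13.4, 13.2 and 15.6% of cells in Control areas and 8.47, 10.2 and 11.3% in HIRA KO areas, without overlap (exact permutation p = 0.1, the smallest that 3 against 3 allows), and the part of this in the Bmp2 value over all cells was not tested. Stellate-like cells, the highest class for Hgf and Bmp5, accounted for 9.69 ± 3.55% of Control cells and 10.4 ± 3.24% of HIRA KO cells (exact permutation p = 0.7).

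**Figure D4:**
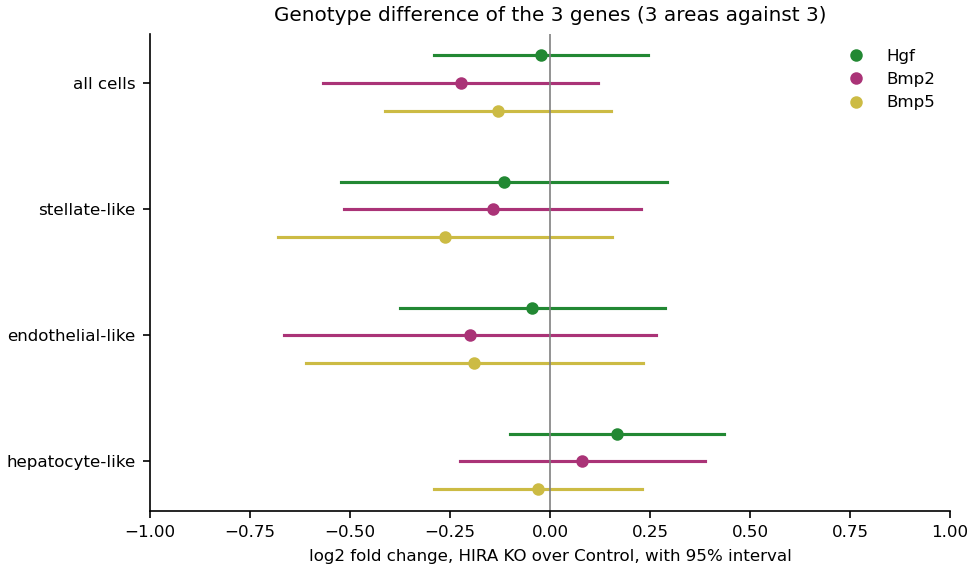
Log2 fold change of HIRA KO over Control for Hgf, Bmp2 and Bmp5 in all cells and in stellate-like, endothelial-like and hepatocyte-like cells (edgeR, 3 areas against 3), with 95% intervals as lines. All 12 intervals cover 0.

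Hepatocyte-like cells, the cells in which HIRA was deleted, showed no called change either. Hgf was 692 ± 105 CPM in Control and 694 ± 59.4 CPM in HIRA KO, and the fit gave a log2 difference of 0.17 (interval −0.10 to 0.43, edgeR adjusted p = 0.629). Bmp2 gave 0.08 (interval −0.23 to 0.39, adjusted p = 0.869). Bmp5 was 586, 528 and 571 CPM in Control areas and 503, 451 and 526 CPM in HIRA KO areas, with no overlap, as for 22.9% of all targets in these cells, and after scaling of the libraries its log2 difference was −0.03 (interval −0.29 to 0.23, adjusted p = 0.967). In cholangiocyte-like cells, a class with no fit here, Bmp2 was 1083, 1030 and 1239 CPM in Control areas and 900, 796 and 463 CPM in HIRA KO areas (exact permutation p = 0.1, the smallest possible), with 14 to 85 counts per area. Groups without overlap in that direction were seen for 5.81% of targets in that class.

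Counts per cell area differed in the other direction, and HIRA KO areas held more counts of all targets together. In counts per megapixel of cell area, Hgf was at 6.52 ± 0.355 in Control and 9.17 ± 0.212 in HIRA KO, Bmp2 at 11.6 ± 0.272 and 14.4 ± 0.0907, and Bmp5 at 5.37 ± 0.164 and 7.03 ± 0.382. All 3 genes were higher in all 3 HIRA KO areas (exact permutation p = 0.1 each), as were 55.4% of all targets. All gene targets together stood at 7087 ± 1334 and 10790 ± 473 counts, and the mean negative probe at 2.99 ± 0.755 and 4.58 ± 0.295 counts. The part of this overall depth in the 3 values was not tested.

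Transcripts outside segmented cells, given as CPM of the gene transcripts outside cells, stood lower in all 3 HIRA KO areas for Bmp2 and Bmp5. Bmp2 stood at 1338, 1186 and 1681 in Control areas and at 1170, 1089 and 961 in HIRA KO areas. Bmp5 stood at 705, 593 and 656 in Control areas and at 488, 373 and 528 in HIRA KO areas. Neither gene overlapped between groups (exact permutation p = 0.1, the smallest possible), and 16.1% of all targets were likewise lower in all 3 HIRA KO areas. Hgf stood at 693 ± 37.8 for Control areas and 759 ± 36.6 for HIRA KO areas (exact permutation p = 0.2). The mean negative probe was 695 ± 147 and 595 ± 33.6. By group means Hgf in Control and Bmp5 in both groups were no higher than this background, although in Control area 1 both stood above its negative probe level of 529.6.

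None of the 53 tested genes of the pathway lists was called between genotypes in any of the 4 fits (edgeR), against 2, 2, 3 and 7 with an unadjusted p under 0.05 in all, stellate-like, endothelial-like and hepatocyte-like cells. Over all 998 targets these shares were 7.315%, 7.315%, 5.81% and 12.2%. In the source classes, the genes of the BMP receptor and BMP ligand lists with the lowest p were Tgfbr1 and Inha. Tgfbr1, a TGF-β receptor gene, stood at a log2 difference of 0.47 ± 0.197 (SE) in stellate-like cells (adjusted p = 0.599), and Inha, an inhibin subunit gene, at −0.41 ± 0.171 in endothelial-like cells (adjusted p = 0.615). Among the other niche factors, Tgfb2 in stellate-like cells (0.48, edgeR adjusted p = 0.520) and Angpt2 in endothelial-like cells (0.51, adjusted p = 0.518) had lower p. Both had totals no higher than the highest negative probe. The BMP receptor list held 9 tested genes, among them the TGF-β receptor genes Tgfbr1 and Tgfbr2. Its medians were −0.11 in all, −0.10 in stellate-like, −0.15 in endothelial-like and −0.09 in hepatocyte-like cells, against medians over all targets of −0.01, −0.01, −0.02 and −0.01. In the same order, the BMP ligand list had −0.11, −0.10, 0.02 and −0.14, and the other niche factors had −0.03, 0.05, −0.03 and −0.01. The 3 Smad genes had −0.04, 0.05, 0.02 and 0.01, and the 2 HGF pathway genes had −0.0045, −0.16, 0.06 and −0.02. These medians were not tested.

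To place source cells in the lobule, each was set by its distances to cells of the Glul-led cluster (pericentral) and to grouped cholangiocyte-like cells (periportal). The split was coarse. Genes with a known side that were on the panel gave 13 pairs of a gene and a class, with Rspo3 in both source classes. All 13 had a mean difference on the known side. Glul and Cdh1 were among them, but they are leading genes of the clusters that mark the axis and no separate check. Only 3 pairs held their side in 6 of 6 areas, namely Arg1 in hepatocyte-like cells (log2 pericentral minus periportal −0.46 ± 0.419, SD), Msr1 in endothelial-like cells (−1.06 ± 0.338) and Ngfr in stellate-like cells (−0.15 ± 0.140). In endothelial-like cells Dll4 (−0.08 ± 0.697) and Vwf (−0.06 ± 0.725) were near 0, and Vwf was higher pericentrally in 4 of 6 areas. Areas differed in how much of each zone they showed, with as few as 27 stellate-like and 30 endothelial-like periportal cells in Control area 2.

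Bmp2 in endothelial-like cells had the steadiest difference along this axis. In the 6 areas it was 4715, 3755 and 5486 CPM (Control) and 4634, 3607 and 4244 CPM (HIRA KO) pericentrally, against 3456, 2761 and 3470 CPM (Control) and 4029, 2733 and 3935 CPM (HIRA KO) periportally. It was thus higher pericentrally in 6 of 6 areas, by a mean log2 difference of 0.36 ± 0.187 (SD, exact sign-flip permutation p = 0.03125, 1 of 6 such tests). In the fit across all targets the log2 difference was 0.34 ± 0.134 (SE), with an unadjusted p of 0.0109 and an adjusted p of 0.658 (edgeR), and it was not called. The value of 2761 CPM in Control area 2 rests on 8 counts. In that fit 0.442% of targets were called. The class pools the Kdr-led cluster (Bmp2 at 4446 ± 771 CPM) and the Fabp4-led cluster (2152 ± 300 CPM). The part of their mix by zone in the Bmp2 difference was not tested.

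In stellate-like cells none of the 3 genes was called between pericentral and periportal cells, where 0.668% of targets were. Bmp5 was 2253 ± 580 CPM pericentrally, 2005 ± 371 CPM in between and 1634 ± 349 CPM periportally, higher pericentrally in 5 of 6 areas (edgeR log2 difference 0.27 ± 0.175 SE, adjusted p = 0.786). Hgf was 2168 ± 245, 2197 ± 392 and 1980 ± 485 CPM in these zones, higher pericentrally in 4 of 6 areas (log2 difference 0.10 ± 0.158 SE, adjusted p = 0.948), and its sign turned under 3 other settings. Bmp2 in stellate-like cells was 1778 ± 255 CPM pericentrally and 1420 ± 279 CPM periportally (log2 difference 0.33 ± 0.175 SE, adjusted p = 0.786). For Hgf in endothelial-like cells the difference was 0.41 ± 0.233 SE (adjusted p = 0.850) on 1 to 43 periportal counts per area, and it turned to −0.12 with all cholangiocyte-like cells as the periportal side. For Bmp5, near background there, the difference was 0.04 ± 0.287 SE (adjusted p = 0.998), where the mean over areas had the other sign (−0.16 ± 0.744, SD).

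**Figure D5:**
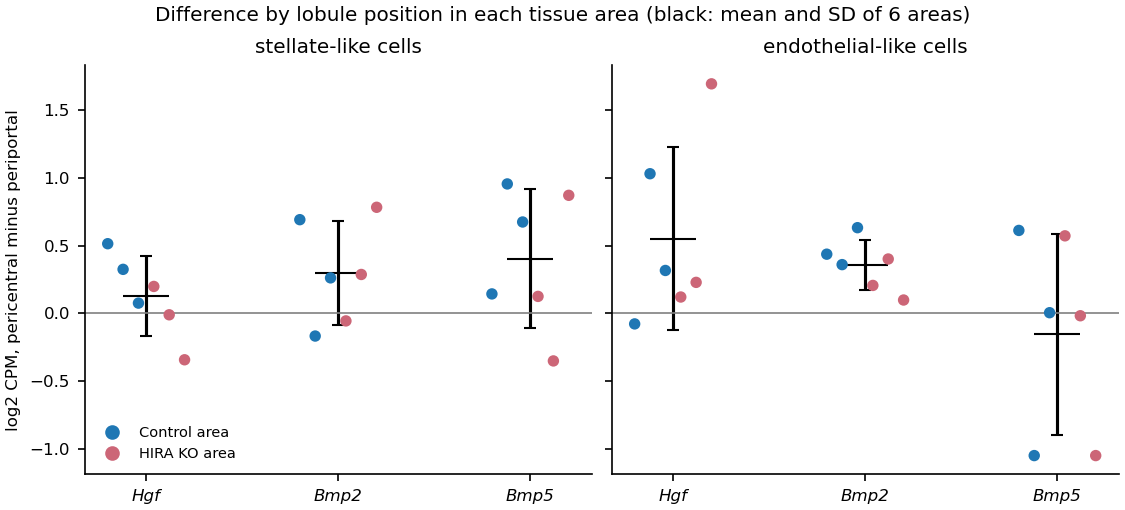
Log2 difference of CPM between pericentral and periportal cells for the 3 genes in stellate-like (left) and endothelial-like cells (right), 1 point per tissue area (blue Control, red HIRA KO), with mean and SD in black. Bmp2 in endothelial-like cells is above 0 in 6 of 6 areas, and the other 5 combinations have areas on both sides of 0.

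The pericentral minus periportal difference was then compared between genotypes, where 3 areas against 3 cannot give a p under 0.1. For Hgf in stellate-like cells it stood at 0.30 ± 0.2201 (SD, n = 3) for Control areas and −0.05 ± 0.273 for HIRA KO areas (exact permutation p = 0.2). For Bmp2 in endothelial-like cells it stood at 0.48 ± 0.141 for Control areas and 0.23 ± 0.154 for HIRA KO areas (exact permutation p = 0.2). The other 4 combinations gave p from 0.4 to 0.8 (exact permutation), and no difference between genotypes in lobule position was detectable. The axis itself may differ between genotypes, since the study reports more cholangiocytes in HIRA KO livers. The median distance to grouped cholangiocyte-like cells was 991, 1715 and 1389 pixels in Control areas. In HIRA KO areas it was 526, 516 and 1255 pixels. Zones of the same name thus may not match between genotypes, which was not tested.

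Single fields of view spread widely around these means. Hgf in stellate-like cells ran from 947 to 4250 CPM over 25 Control fields (median 2268) and from 989 to 3549 CPM over 25 HIRA KO fields (median 2004). Bmp2 in endothelial-like cells ran from 2268 to 6834 CPM (median 4419) and from 2396 to 5502 CPM (median 3749). Bmp5 in stellate-like cells ran from 1158 to 3505 CPM (median 2193) and from 1289 to 4678 CPM (median 1774). Fields of view within an area are not replicates, and the ranges of both groups overlapped for all 3 genes.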

How the data were processed

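CosMx spatial molecular imaging with a 1000-plex mouse RNA panel and 10 negative probes was done on 50 fields of view of 1 slide. As deposited, the values are counts of transcripts for each target in each cell, not normalized by the authors, beside cell areas and positions in pixels and a table of single transcripts. Decoding and segmentation were done by the imaging provider, and software versions are not given in the sources used here. The count and transcript tables differed in 0 cells. Of 52132 cells, those with under 20 counts (2215) or over 5 times the geometric mean area (252) were dropped by the limits that the methods of the study state, leaving 49665.

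Pearson residuals (theta 100, clipped at 10) of all targets but Hgf, Bmp2 and Bmp5 (the study's methods use Bmp5 as a stellate marker) gave 30 principal components, a graph of 20 neighbours and Leiden clusters at resolution 1.6 (leidenalg 0.10.2, Python 3.11.15). A cluster took a class name when at least 3 of its markers were raised by over 0.5 on the log2 scale and markers of that class were the most frequent among its 10 top genes, and other clusters stayed unnamed. No doublet caller was run, since segmented cells share transcripts with neighbours. Pericentral marker cells were those of the cluster led by Glul. It had only 2 raised hepatocyte markers and so no class name, whereas the planned rule asked for hepatocyte-like clusters led by Glul, of which there were 0. Periportal marker cells were cholangiocyte-like cells with at least 2 of their kind among 10 neighbours, and position was the distance to the first over the sum of both distances, split at 0.333 and 0.667.

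Counts were summed per tissue area, class and position and tested with edgeR 4.0.16 (quasi-likelihood, TMM, filterByExpr, R 4.3.3) over all targets, with adjusted p under 0.05 as a call, and intervals from the t distribution. Negative probes entered neither library sizes nor tests. Exact permutation tests were two-sided. Those on levels in classes used log2 CPM with 0.5 counts added, and shares of cells were compared as percentages. The scripts were tested on simulated data. Each 3 against 3 fit has few areas, which sets its precision, and intervals do not cover variation between slides.

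The genes, lists, markers and tests were chosen with earlier results of these data known. Named are the 3 genes, up to 3 members of each list by lowest p, the 5 targets most alike over classes and genes of known lobule side. Probe sequences were not used here.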

Additional observations from a re-analysis of the deposited data

How the results depend on the processing

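The stellate-like against endothelial-like contrast passed the threshold with the same direction in all 33 tests of 1 gene under 1 other setting. Of these tests, 18 left out 1 area, with log2 differences from 0.98 to 1.12 (Hgf), −1.32 to −1.18 (Bmp2) and 1.68 to 1.97 (Bmp5). Classes by marker score, chosen for levels after seeing the data, lowered the level in the top class to 1879 CPM (Hgf), 3359 CPM (Bmp2) and 1615 CPM (Bmp5), and the cause was not tested. No genotype difference (168 such tests over genes, cells and settings) or position difference (83 such tests) passed, and slide row as a block called none of the 3 genes. The labels give the groups no shared replicate numbers, so slide row was the only pairing of areas that could be fitted. Over all targets, the genotype fits called 2 in all cells (10 with DESeq2, 1 with library size alone, 17 with slide row as a block), 4 in stellate-like cells (4, 10 and 12), 0 in endothelial-like cells (1, 0 and 7) and 12 in hepatocyte-like cells (33, 28 and 47). In hepatocyte-like cells 9 were higher and 3 lower, against 6 and 22 with library size alone. Library size alone moved the median of all targets from −0.01 to −0.12 over all cells and from −0.01 to −0.15 in hepatocyte-like cells. The nuclear-only position fit in endothelial-like cells gives no value for Bmp5, which fell below its filter. Some genotype and position differences, none of them called, turned sign. In hepatocyte-like cells Bmp2 became −0.057 with library size alone and Bmp5 0.0022 with at least 50 counts per cell. In endothelial-like cells Hgf became 0.13 with nuclear transcripts and 0.0044 in the Kdr-led cluster, an alternative chosen after seeing the data, as were the Dcn-led cluster and pericentral cells with 2 neighbours of their kind. For position, Hgf in stellate-like cells became −0.14 with the top 3% of Glul share as pericentral cells, −0.11 with pericentral cells with 2 neighbours and −0.051 in the Dcn-led cluster. Hgf in endothelial-like cells became −0.12 with all cholangiocyte-like cells as periportal cells. Bmp5 in endothelial-like cells became −0.00042 with at least 50 counts, −0.19 (top 3%), −0.072 (all cholangiocyte-like), −0.068 (no middle class), −0.11 (2 neighbours) and −0.14 (Kdr-led cluster). Its genotype difference in position became 0.15 with no middle class.

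Without 1 area, genotype differences of Hgf, Bmp2 and Bmp5 ranged from −0.14 to 0.0802, −0.38 to −0.08 and −0.27 to −0.01 over all cells. They ranged from −0.27 to 0.0091, −0.20 to −0.05 and −0.44 to −0.12 in stellate-like cells, from −0.0873 to 0.0047, −0.34 to −0.03 and −0.59 to −0.02 in endothelial-like cells, and from 0.02 to 0.28, −0.11 to 0.25 and −0.10 to 0.0164 in hepatocyte-like cells. Position differences ranged from 0.02 to 0.19, 0.26 to 0.45 and 0.17 to 0.45 in stellate-like cells and from 0.23 to 0.53, 0.30 to 0.42 and −0.14 to 0.24 in endothelial-like cells. Their genotype differences ranged from −0.48 to −0.21, −0.15 to 0.29 and −0.70 to −0.09 in stellate-like cells and from −0.25 to 0.56, −0.32 to −0.16 and −0.47 to 0.42 in endothelial-like cells.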
